A study of Homo sapiens with 6 samples.

Results

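Argonaute crosslinks in the ZNF genes, the largest group of human C2H2 zinc finger genes, were taken from a PAR-CLIP map of HK2 cells. All sites whose gene name was ZNF followed by digits, with at most 1 trailing letter, were included, which gave 386 of 16230 sites (2.38%) in 125 genes. HK2 is an immortalised human cell line derived from the proximal tubule of the kidney. PAR-CLIP feeds cells 4-thiouridine, which ultraviolet light crosslinks to a bound protein, so that the crosslinked T of each read marks where Argonaute, the protein that carries microRNAs, lay on an RNA. The study asked where microRNAs bind in these cells with and without TGF-beta1, a cytokine that drives fibrosis.

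The cells were genetically wild type in all groups. Cells of every group were kept without serum for 24 h, labelled with 100 uM 4-thiouridine for 20 h and irradiated at 365 nm, per the labels' protocols. TGF-beta1 was added at 20 ng/mL over 24 h for the 2 treated Argonaute libraries, and the 2 control Argonaute libraries came from cells without it. The 2 libraries made with IgG were not analysed here. Whether replicates were separate cultures is not stated in the labels. The p-values below therefore rest on differences among 4 libraries that may be technical repeats.

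C2H2 fingers are short protein modules that fold around a zinc ion and read DNA, and they stand in tandem, joined by a conserved linker, so that the coding sequence of 1 gene holds many near-copies of the same stretch. Many ZNF proteins also carry a KRAB domain, which recruits the co-repressor TRIM28 and heterochromatin proteins and silences transposable elements. Many of the genes lie in clusters on chromosome 19. MicroRNAs pair through their seed, bases 2 to 8, mostly with 3' UTRs, and pairing with coding repeats of zinc finger genes is also known.

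The seed with the most sites in ZNF coding sequence was that of the miR-181 family. Its members are shown first, as this seed was annotated at 32 of the 112 ZNF coding sites. Capitals mark bases 2 to 8. Mature sequences are from RefSeq, build GRCh38.p14, where all 14 microRNAs of the leading 3 seed families in ZNF coding sites were found.
hsa-miR-181a-5p: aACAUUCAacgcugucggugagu
hsa-miR-181b-5p: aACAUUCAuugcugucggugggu
hsa-miR-181d-5p: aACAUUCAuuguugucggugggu
hsa-miR-23a-3p: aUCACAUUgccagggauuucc
hsa-miR-23b-3p: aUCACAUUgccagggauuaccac
hsa-let-7a-5p: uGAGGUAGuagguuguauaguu

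The coding sites below had the most crosslinked reads among the 7-nt matches of each of the leading seeds. Each stretch runs 5′ to 3′ on the RNA strand in hg38, the crosslinked T is base 16, and capitals mark the match to microRNA bases 2 to 8.
ZNF440, miR-181, chr19:11832179-11832208, plus strand: tctggagaaagaccttaTGAATGTaagata
ZNF850, miR-181, chr19:36748085-36748114, minus strand: accggtgacagaccttaTGAATGTaaagaa
ZNF700, miR-181, chr19:11949011-11949040, plus strand: tgggaaaaaaccgtaTGAATGTaagcaata
ZNF43, miR-23, chr19:21808573-21808602, minus strand: gaaaaaccgtacaAATGTGAagaatgtggc
ZNF117, miR-23, chr7:64978722-64978751, minus strand: gagaagctgtacaAATGTGAagaatgtggt
ZNF567, let-7, chr19:36719096-36719125, plus strand: tgtgaattcaaaaaatCTACCTCctgaata
ZNF700, let-7, chr19:11949378-11949407, plus strand: gggaaagccttcagatCTACCTCacacctt
ZNF451, let-7, chr6:57101497-57101526, plus strand: acatcccctctagattCTACCTCaaaagaa

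The miR-181 stretches share a run of letters on both sides of the match across genes, as do the miR-23 stretches, whereas the let-7 stretches share little outside the match. The 3 coding sites with the most reads and no seed annotation are shown for contrast, with no capitals.
ZNF207, chr17:32360670-32360699, plus strand: ttcagccacagcctgttcaacctcagcaag
ZNF800, chr7:127373502-127373531, minus strand: tagctgacgtcggtattgaagtaaaagtca
ZNF639, chr3:179334043-179334072, plus strand: gcctcttaagcaaaattacctttgacaaat

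The libraries held 1714444 and 1926254 reads in control replicates 1 and 2 and 5293207 and 3415700 reads in TGF-beta1 replicates 1 and 2. Crosslinked reads in ZNF genes numbered 920, 1477, 1975 and 2075 in the same order. Every ZNF site was crosslinked in at least 2 libraries, and 211 of the 386 in all 4. The treated libraries were deeper, and 31 ZNF sites had no crosslink in either control library against 6 with none in either treated library. Of 12 proximal tubule markers 1 had a site, PAX8, and of 6 epithelial markers KRT18 and CLDN1 did. No marker of fibroblasts, endothelium or leukocytes had one, but a gene without an Argonaute site may still be expressed.

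ZNF transcripts were crosslinked mainly in the 3' UTR and, next, in the coding sequence. The 3' UTR held 175 sites in 82 genes (45.3%, 95% Wilson interval 40.4 to 50.3) and the coding sequence 112 sites in 58 genes (29.0%, 24.7 to 33.7). Among all other genes the shares were 38.9% and 26.1% of 15844 sites, which include 551 intergenic and 816 noncoding RNA sites. ZNF genes, chosen by name, had 0 of either, which lifts their shares by comparison. Counting only those 2 regions, 39.0% of ZNF sites and 40.2% of the sites of other genes were coding, so the balance between coding sequence and 3' UTR was close in the 2 sets. The other C2H2 families named by their own symbols (KLF, SP, ZBTB, EGR and the like) had 13 of 113 such sites in coding sequence, or 11.5% (6.85 to 18.7). These intervals, and those below, cover counting error only, since reads without molecular identifiers are not independent molecules and sites of 1 gene share a transcript.

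Introns held 69 ZNF sites (17.9%, against 22.2% in other genes). Stretches past the annotated 3' end held 17 sites in 13 genes, among them ZNF91, ZNF460 and ZNF695, or 4.40% (2.77 to 6.94) against 1.02% in other genes. Chromosome 19 carried 162 of the ZNF sites in 60 genes, 42.0% of them, against 3.22% of the sites of other genes. Its share was similar in coding sequence, 44.6%, and in the 3' UTR, 42.3%.

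Reads gave a coding share above that of other genes in each library. Of crosslinked ZNF reads, 24.0% and 22.7% were coding in control replicates 1 and 2 and 23.2% and 21.4% in TGF-beta1 replicates 1 and 2. The same libraries gave 16.3 to 19.2% for other genes, so the lowest ZNF value lay above the highest of the others. Reads of other genes include those at intergenic and noncoding RNA sites, which ZNF genes lack. Over coding and 3' UTR reads alone, the lowest ZNF library, TGF-beta1 replicate 2, fell below the highest of the others, TGF-beta1 replicate 1. These held 445 coding and 1373 3' UTR ZNF reads against 13850 and 40587 in other genes. Within each library the ZNF share was still higher, though only narrowly in the treated ones. In TGF-beta1 replicate 2 other genes held 13487 coding and 42264 3' UTR reads. In TGF-beta1 replicate 1 ZNF genes held 459 coding and 1249 3' UTR reads. ZNF coding shares were 23.4% ± 0.900 (SD, n = 2) in control and 22.3% ± 1.27 (SD, n = 2) after TGF-beta1, and the groups overlapped. The difference of -1.04 percentage points gave p = 0.667 in a two-sided exact permutation test, which cannot go below 0.333 here. With all covering reads in place of crosslinked reads, the difference was 1.06 percentage points.

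The share of covering reads that carried a crosslink was also higher at coding ZNF sites, at 44.6% and 41.9% in control and 32.9% and 38.4% after TGF-beta1. Coding sites of other genes gave 13.05 to 26.6%, below every ZNF value. In 3' UTRs the ZNF values were 33.4 to 36.7% and those of other genes 24.7 to 33.0%. The table lists no coverage where a library has no crosslink, so these shares hold only for crosslinked sites.

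The 3' UTR took 64.0%, 65.5%, 63.2% and 66.2% of ZNF crosslinked reads in the 4 libraries, in the same order. Stretches past the annotated end took 3.04%, 3.72%, 3.85% and 4.19%, against 0.696 to 0.768% in other genes. No library of the other genes reached the lowest ZNF value there.

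**Figure D1:**
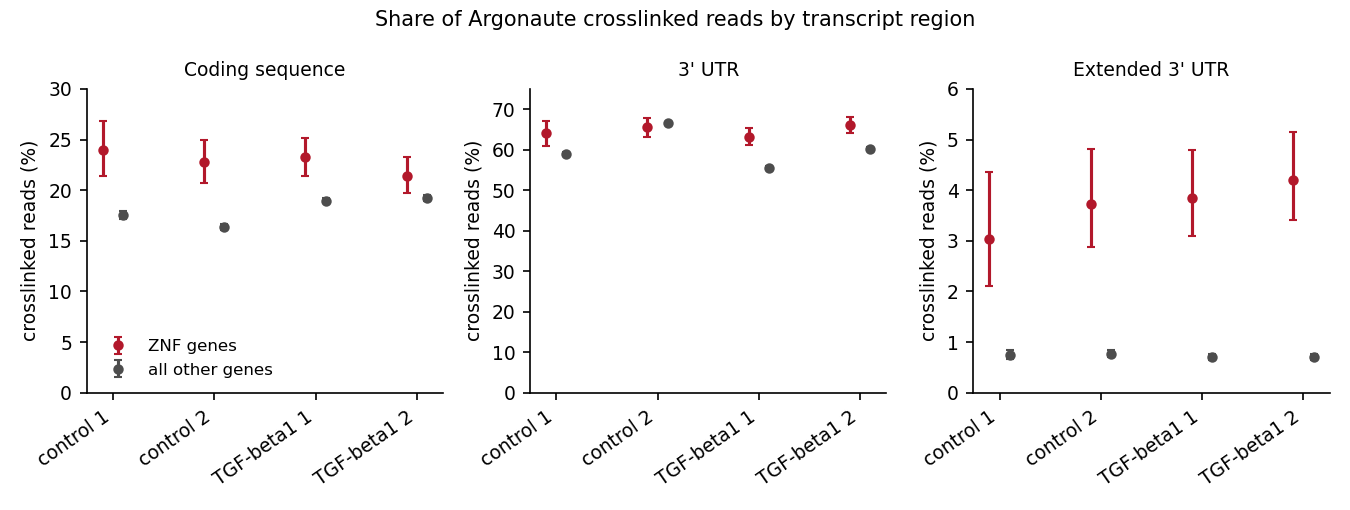
Share of crosslinked reads (%) in coding sequence, 3' UTR and the stretch past the annotated 3' end, for ZNF genes (red) and all other genes (grey) in each of the 4 Argonaute libraries. Points are libraries and bars are 95% Wilson intervals (counting error only). In coding sequence the ZNF points run from 21.4 to 24.0%, all above the other genes' 16.3 to 19.2%. Shares are of the reads at all sites of a set, and other genes include intergenic and noncoding RNA sites that ZNF genes lack. In the 3' UTR the ZNF points lie higher in 3 libraries and not in control replicate 2.

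Coding and 3' UTR sites were often in different ZNF genes. Of the 125 genes, 35 had both kinds, 23 had coding but no 3' UTR sites, 47 had 3' UTR but no coding sites and 20 had neither. The number of sites per gene had a median of 2, and 54 genes had only 1, so that those could not have both kinds. The same counts for other genes are not given here. ZNF367 had the most, 15, all in the 3' UTR. ZNF207, a protein of the mitotic spindle that binds BUB3, had 5 coding and 5 3' UTR sites among its 11. ZNF644, a partner of the histone methyltransferases EHMT1 and EHMT2, also had 11 sites, of which 5 were coding and held 87 of its 116 reads. ZNF12 had the most coding sites, 7 of 9. The coding sequence held 84.7% of the reads of ZNF850, which had 5 coding sites, and 78.1% of those of ZNF121, also with 5.

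Seed annotation in coding sequence differed most from other genes in the full 7-nt matches. The authors' table assigned a microRNA seed to 80 of the 112 coding ZNF sites, 71.4% (62.5 to 79.0), against 59.4% of 4139 coding sites of other genes. A 7-nt match was assigned to 42, or 37.5% (29.1 to 46.7), against 14.9%. Among sites with at least 10 reads the 7-nt shares were 44.6% and 25.4%, among sites crosslinked in all 4 libraries 44.4% and 25.9%, and by crosslinked reads 45.9% and 26.1%, so the ratio fell from 2.51 to between 1.71 and 1.76. In the 3' UTR the shares lay closer: 139 of 175 ZNF sites, 79.4% (72.8 to 84.8), against 73.1% for any seed, and 33.7% (27.1 to 41.0) against 26.8% for 7-nt matches. That order turned among 3' UTR sites with at least 10 reads, where ZNF genes had 79.0% against 81.0% for any seed and 34.3% against 35.8% for 7-nt matches, and by reads the 7-nt shares were 34.6% and 40.7%. The other C2H2 families had a seed at 10 of 13 coding sites and a 7-nt match at 4, or 30.8% (12.7 to 57.6), an interval that holds the ZNF share, and 3' UTR shares of 79 and 34 of 100 sites. The 7-nt shares of coding and 3' UTR ZNF sites had overlapping intervals, and that of other coding sequence lay below both. No test across sites was made, because sites in repeats of 1 gene or in related genes share sequence.

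ZNF sites with a seed in coding sequence had a median of 13 crosslinked reads over the 4 libraries, against 6 for those without. In coding sequence of other genes the medians were 7 and 6. Among coding sites with at least 10 reads, 82.1% of ZNF sites and 70.8% of those of other genes had a seed, both above the shares over all sites. Introns of ZNF genes had a seed at 42 of 69 sites (60.9%), with a 7-nt match at 11.

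The miR-181 seed accounted for 32 of the 112 coding ZNF sites, 28.6% (21.02 to 37.5), in 21 genes. In coding sequence of other genes it accounted for 114 of 4139 sites, 2.75%, in ZNF 3' UTRs for 12 of 175, 6.86%, and in other 3' UTRs for 4.27%. Of the 32 sites, 25 were 7-nt matches, which is 25 of the 58 such coding matches in the whole table. The other C2H2 families had 1 miR-181 site among 13 coding sites, in ZBTB7A. Without the miR-181 sites, 60.0% of the other 80 coding ZNF sites had a seed, against 58.2% in other genes, and 21.2% had a 7-nt match, against 14.5%.

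The miR-181 share depended on where the genes lie. Of the 32 sites, 26 were on chromosome 19. Without that chromosome 6 of 62 coding ZNF sites remained, 9.68%, against 2.76% in other genes. ZNF12, ZNF121, ZNF180, ZNF700 and ZNF850 had 3 miR-181 sites each and ZNF780A had 2. Leaving out these 6 genes gave 15 of 85 sites, 17.6%. Taking only 1 coding site per gene, the one with the most reads, gave 31.03%. That choice favours miR-181 sites, which had a median of 15 reads against 8 at the other coding ZNF sites.

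**Figure D2:**
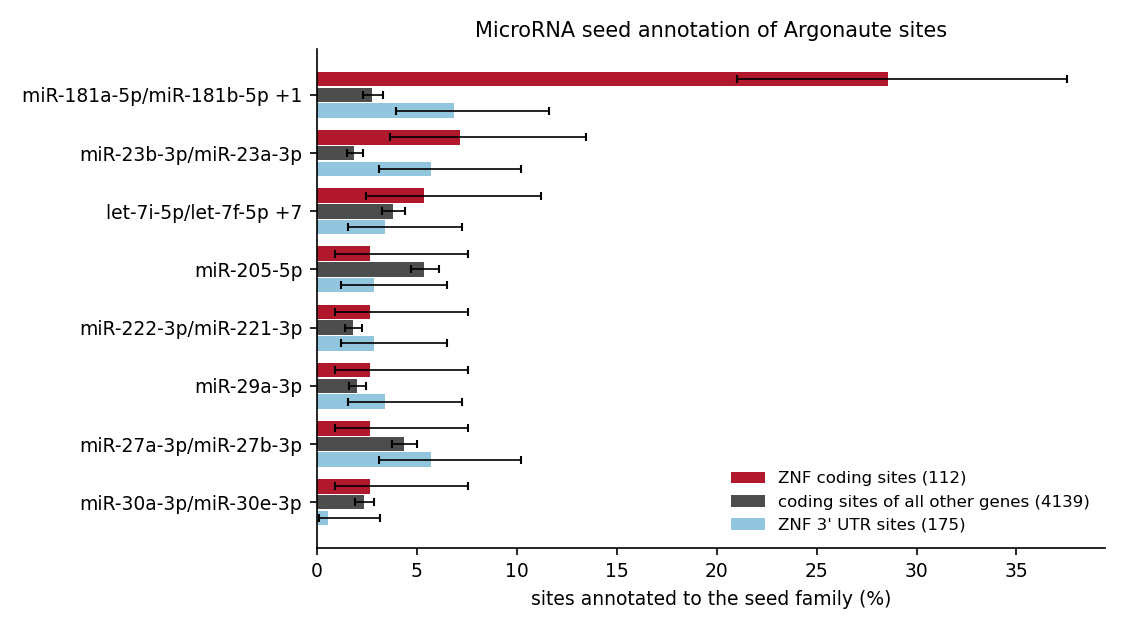
Share of sites (%) annotated to each of the 8 seed families with the most coding ZNF sites, for the 112 coding ZNF sites (red), the 4139 coding sites of other genes (grey) and the 175 ZNF 3' UTR sites (blue). Bars are shares with 95% Wilson intervals, and +1 or +7 marks further family members. The miR-181 family stands at 28.6% of coding ZNF sites against 2.75% and 6.86%; the other families shown lie at or under 7.14% in all 3 sets.

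Other seeds were rarer in ZNF coding sequence. The miR-23 seed had 8 sites, 7.14% (3.66 to 13.5) against 1.86% in other coding sequence, and 7 of them were 7-nt matches. The let-7 seed had 6 sites, 5.36% against 3.79%. By the authors' microRNA abundance score, scaled to library size, the let-7 seed stood at 97405, the miR-181 seed at 6130 and the miR-23 seed at 884, so the order of coding ZNF sites was not the order of abundance. ZNF 3' UTRs had a different order, led by miR-26 with 13 sites (7.43% against 3.15% in other 3' UTRs), then miR-181 with 12, miR-23 and miR-27 with 10 each and miR-21 with 8.

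Reads at the miR-181 sites were a large part of ZNF coding reads in every library. They made up 25.3% and 46.1% in control replicates 1 and 2 and 32.9% and 36.9% in TGF-beta1 replicates 1 and 2. For coding sequence of other genes the same shares were 2.44 to 2.78%. The other C2H2 families, with few coding reads and the ZBTB7A site alone, gave 20.9 to 48.9%, over 14 to 47 reads a library. The ZNF means were 35.7% ± 14.7 (SD, n = 2) in control and 34.9% ± 2.80 (SD, n = 2) after TGF-beta1, with the treated values inside the range of the controls. Single sites had a median of 15 reads over the 4 libraries, from 3 to 57, against 8 at the other 80 coding ZNF sites, and 22 of the 32 were crosslinked in all 4 libraries.

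The ZNF440 site shown above had 2 and 12 reads in control and 23 and 20 after TGF-beta1. That of ZNF850 had 7 and 11 in control and 17 and 12 after TGF-beta1, and that of ZNF700 had 3 and 7, then 13 and 4. Treated libraries were deeper, and on the depth-scaled values neither of the 2 miR-181 coding sites deep enough to be tested, those of ZNF440 and ZNF850, passed the test given below. ZNF440 stood at a log2 difference of 1.16 (limma adjusted p = 0.220) and ZNF850 at 0.12 (limma adjusted p = 0.918).

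Among 7-nt words, TGAATGT is the complement of the miR-181 seed. It was found on the transcript strand of the 31-nt window around 25 of the 112 coding ZNF crosslinks (22.3%). The share was 1.01% in other coding sequence, 3.43% in ZNF 3' UTRs and 2.76% in other 3' UTRs. All 25 windows were among the 32 miR-181 sites, so this count restates the seed annotation above. GAGAAAC and AGAAACC, which overlap by 6 letters, were each found in 15 coding ZNF windows (13.4%), against 0.411% and 0.242% of other coding windows. GAGAAAC stood in 12 of the 32 miR-181 windows and in 3 of the other 80. Such words are a description of shared letters; the words were chosen after the windows had been seen.

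The register between crosslink and match also differed. Position 0 is a crosslink on the first base of the match, and 2 a match starting 2 nt downstream. In ZNF coding sequence, 14 of the 25 miR-181 7-nt matches started at 2, 7 at 0 and 3 at 1. In coding sequence of other genes 16 of 33 started at 1 and only 1 at 2, and in their 3' UTRs 84 of 135 started at 1 and 5 at 2. A crosslink needs a T, and the ZNF440 and ZNF850 stretches above have their T at the same place before the match. The miR-23 matches printed for ZNF43 and ZNF117 start at -2, with the crosslinked T inside the match, while the let-7 matches start at 1.

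**Figure D3:**
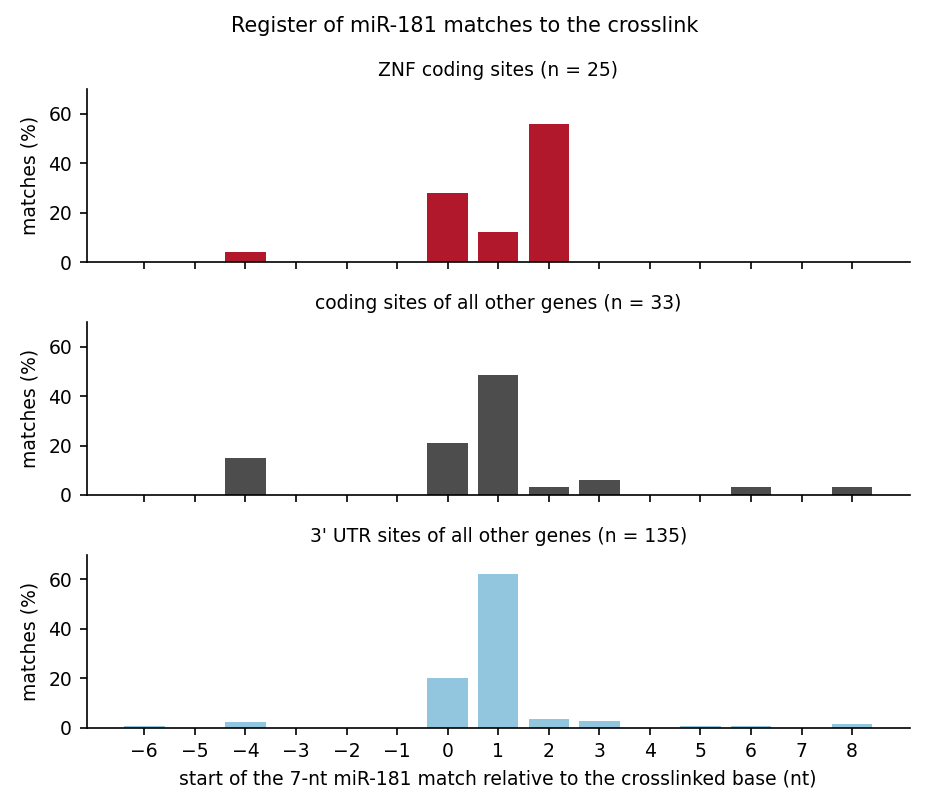
Start of the 7-nt miR-181 match relative to the crosslinked base (nt, x axis; positive is downstream) as a share of matches (%, y axis) in ZNF coding sites (25), coding sites of other genes (33) and 3' UTR sites of other genes (135), drawn from -6 to 8 nt. ZNF coding matches peak at 2 nt with 56.0%, and both other sets at 1 nt.

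Distances within genes followed the finger repeat in part. A C2H2 finger with its linker usually spans 28 codons, or 84 nt. In the 6 ZNF genes with more than 1 coding miR-181 site, 9 of the 16 distances between matches were exact multiples of 84 nt, in 5 of the genes. The 3 matches of ZNF121 were 252 nt apart from one to the next, and those of ZNF180 stood 420 and 588 nt apart. A pair in ZNF12 was 84 nt apart, that of ZNF780A 420 nt and 1 pair in ZNF850 840 nt. The distances of ZNF700 were 75, 1194 and 1269 nt, none a multiple. In other genes none of 3 distances was: that of HSP90B1 was 1341 nt, and those of CNOT1 and RIF1 were 36118 and 21970 nt. So few distances, most of them far longer than those in ZNF genes, give no contrast to the ZNF genes. Over all pairs of coding crosslinks of 1 gene within 30 repeats, 6 of 94 ZNF pairs (6.38%) and 70 of 8140 pairs in other genes (0.860%) were exact multiples. Pairs of 1 gene share sites and are not independent, distances were taken on the genome, and this spacing was examined after the sequences had been seen.

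Because fingers are near-copies, reads of 1 gene can resemble another. The whole 31-nt window recurred at another site for 5 of the 386 ZNF sites, among them the coding miR-181 sites of ZNF440 and ZNF69 and 3' UTR sites of ZNF107 and ZNF138. Which gene such reads came from is uncertain, since the treatment of reads with several genomic matches is not given in the sources used here. Leaving out coding windows found at another site gave a miR-181 share of 27.5%.

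Levels below are crosslinked reads in RPM, the reads scaled to a fixed library size, corrected further between libraries by TMM, a factor that aligns the bulk of the genes, and summed over the sites of a gene. They follow both the amount of a transcript and its occupancy by Argonaute, which cannot be told apart here. With 2 libraries a group, groups that do not overlap reach p = 0.333 at best in an exact two-sided permutation test. The share of all genes without overlap is not given here. ZNF367 had the highest mean level. Its values were 53.1 and 41.2 in control and 26.4 and 33.6 after TGF-beta1, with both controls above both treated libraries. ZNF431 had 37.6 and 39.7, then 34.6 and 40.4, and ZNF678 had 30.97 and 35.2, then 25.5 and 31.9, each with overlapping groups. ZNF800 had 27.099 and 26.998, then 33.8 and 33.6, without overlap (limma adjusted p = 0.590). Next in order were ZNF91, ZNF281, the SUMO ligase gene ZNF451, ZNF567, ZNF107 and ZNF264. The levels of ZNF367 and ZNF431, first and second in order, overlapped across libraries, as did those of ZNF431 and ZNF678. These 10 genes held 40.3% of all ZNF crosslinked reads.

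Single sites made up most of the reads in several of these genes. A 3' UTR site of ZNF431 at chr19:21192115 with a miR-27 seed had 363 reads over the 4 libraries, 82.9% of the gene's total. A miR-27 site in the 3' UTR of ZNF800 had 290, or 81.0%, and a miR-21 site in that of ZNF678 had 239, or 67.9%. The largest site of ZNF281, a transcription factor linked to epithelial-mesenchymal transition, had a 7-nt miR-23 match and 56.3% of its reads. The ZNF sites with the most reads were thus in 3' UTRs, and no coding miR-181 site had more than 57.

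**Figure D4:**
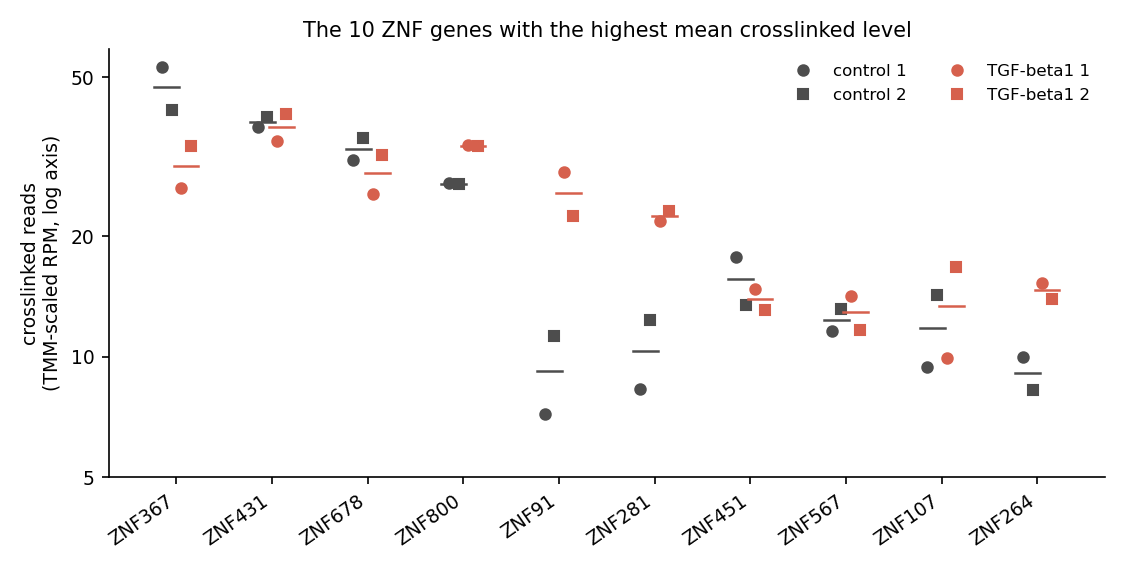
Crosslinked level (TMM-scaled RPM, log axis) of the 10 ZNF genes with the highest mean, in 2 control (grey) and 2 TGF-beta1 libraries (orange). Circles are replicate 1, squares replicate 2, and lines group means. The groups stand apart in ZNF367, higher in control, and in ZNF800, ZNF91, ZNF281 and ZNF264, higher after TGF-beta1. Of these genes only ZNF91 passed the limma test. Groups of 2 that stand apart reach p = 0.333 at best in an exact two-sided permutation test. The share of all genes whose groups stand apart is not given here.

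After TGF-beta1, ZNF91 rose, and no other ZNF gene passed the test. Of the 125 genes, 44 were deep enough to be tested, 1 was called higher and 0 lower with limma (Benjamini-Hochberg adjusted p under 0.05 over all 1266 genes tested). Among all genes tested, 1.58% were called higher and 1.5% lower, 3.08% together. Before adjustment, 3 ZNF genes were higher and 1 lower at p under 0.05, beside 6.24% and 7.58% of all genes. The 44 log2 differences (TGF-beta1 minus control) ran from -0.66 to 1.40 with a median of 0.13, against 0.02 over all genes, and 28 were above 0. Without TMM scaling the medians of all genes and of ZNF genes moved together, to -0.45 and -0.34. Only 11 of the 44 ZNF differences were then above 0, so the sign of most of them depended on the scaling. The ZNF median thus lay above that of all genes by 0.11 with the scaling and 0.12 without it. All genes of a library get the same factor, so this gap could change little and is no separate check.

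ZNF91 encodes a KRAB protein that represses SVA retrotransposons. Its level was 7.19 and 11.2 in control and 28.9 and 22.5 after TGF-beta1, so that both treated libraries lay above both controls. The group means were 9.22 ± 2.87 and 25.7 ± 4.56 (SD, n = 2 each), a 2.79-fold difference and a log2 difference of 1.40 ± 0.31 (SE, limma adjusted p = 0.0378). The call was also made by edgeR and DESeq2 on recovered reads (adjusted p = 0.0338 and 0.0424) but was lost when any 1 library was left out (limma adjusted p 0.139 to 0.327). It was also lost without TMM scaling, where the log2 difference was 0.89 (limma adjusted p = 0.433), without the variance trend (0.148), with covering reads (0.219) and with no filter on low counts (0.370).

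All 6 ZNF91 sites lay in the 3' UTR or past its end, and all 6 had a seed. A 3' UTR site with a miR-183 seed stood at 3.32 and 5.85 scaled RPM in control and 12.9 and 10.6 after TGF-beta1, with a limma adjusted p of 0.0723, short of the threshold. Another with a 7-nt miR-103 match stood at 1.11 and 1.38, then 8.31 and 4.57 (limma adjusted p = 0.0680). Neither site overlapped between groups.

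Other ZNF genes with wide differences did not pass. ZNF281 stood at 8.30 and 12.4 in control and 21.8 and 23.1 after TGF-beta1, without overlap (log2 difference 1.07 ± 0.30 SE, limma adjusted p = 0.0934). ZNF460 stood at 1.66 and 4.87, then 7.94 and 9.68 (limma adjusted p = 0.208). With 3' UTR sites alone, ZNF91, ZNF281 and ZNF460 were called higher among 24 ZNF genes tested, beside 4.31% of all genes in that fit. With coding sites alone 0 of 12 were called by limma, beside 5.95% of all genes, with unadjusted p under 0.05 for 1 lower and 0 higher.

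**Figure D5:**
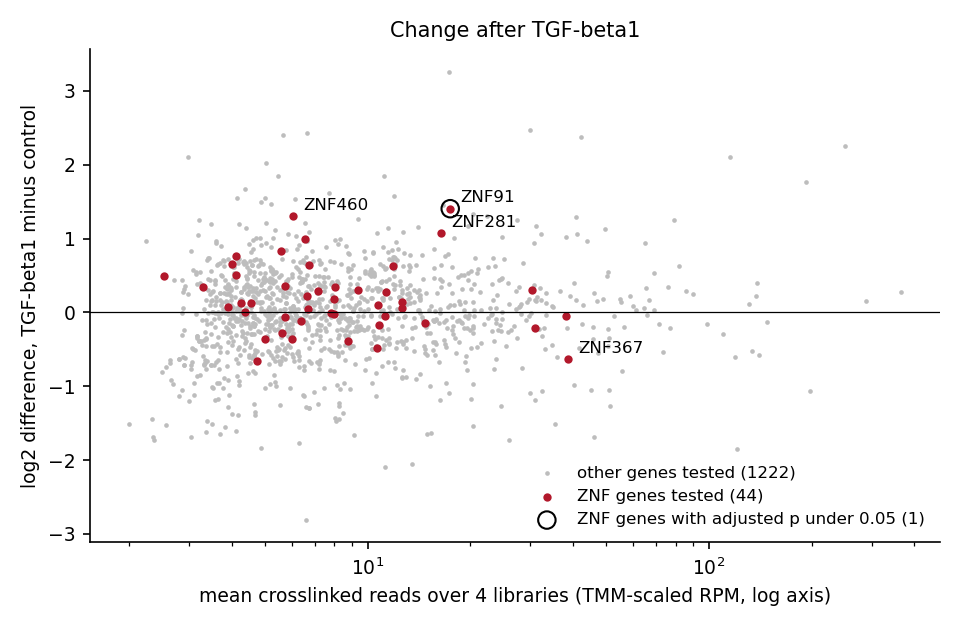
Log2 difference (TGF-beta1 minus control) against mean crosslinked level (TMM-scaled RPM, log axis) for the 44 ZNF genes (red) and all other genes tested (grey). The circle marks ZNF91, at 1.40. The other ZNF genes lie between -0.66 and 1.31 and among the other genes.

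Of single ZNF sites, 27 in 20 genes were tested, 23 in 3' UTRs and 4 coding. With limma 0 were called higher and 1 lower, against 3.68% and 3.49% of the 1059 sites tested, 7.18% together. At an unadjusted p under 0.05, 5 were higher and 1 lower, beside 10.5% and 8.78% of all sites. The site called lower lay in the 3' UTR of ZNF367 and is printed with its 6-nt match to miR-205 bases 3 to 8 in capitals and the crosslinked T at base 16.
ZNF367, miR-205, chr9:96388104-96388133, minus strand: tattctgtagaaatttATGAAGaatgttat

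The ZNF367 site stood at 24.4 and 14.8 scaled RPM in control and 6.46 and 6.85 after TGF-beta1, from 44, 43, 21 and 24 reads. Both control libraries lay above both treated ones. The log2 difference was -1.39 ± 0.35 (SE, limma adjusted p = 0.0128), and the control mean was 2.94-fold the treated mean. The call was lost without control replicate 1, without either treated library, without the variance trend and with no filter on low counts, while without control replicate 2 there were 7 calls, 6 of them higher.

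Other ZNF367 sites did not all move with it. A 7-nt match of the miR-17 family at chr9:96388075 stood at 4.43 and 3.10 in control and 5.85 and 6.28 after TGF-beta1 (limma adjusted p = 0.571). A 7-nt miR-21 match at chr9:96386520 stood at 3.88 and 4.82, then 0.923 and 2.00 (limma adjusted p = 0.269). Over its 15 sites ZNF367 had a log2 difference of -0.64 ± 0.24 (SE, limma adjusted p = 0.252). The difference between its sites was not tested.

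Too few genes of the proteins that KRAB zinc finger proteins recruit were tested to describe the group. Of 22 co-repressor and heterochromatin genes, 15 had sites, 81 in all, and 3 were tested: TRIM28, the KRAB co-repressor, and CBX3 and CBX5, which encode HP1 proteins. Their log2 differences were -0.13, 0.25 and -0.16, and limma called 0 of them, beside 3.08% of all genes. CBX5 had 41 sites, 38 of them in the 3' UTR, while TRIM28 had 7 of its 8 in coding sequence. Of 41 genes of the other C2H2 families, 18 were tested and 0 called by limma, beside the same 3.08%, with a median log2 difference of 0.02.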

How the data were processed

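Per the file headers, the authors deposited, for each site and library, crosslinked and covering reads in RPM (scaled to the library's total reads), and a microRNA abundance score, on hg38 with GENCODE 27. Per the submitters' processing notes the tools were bcl2fastq 2.20.0.422, STAR 2.7.1a and bedtools; the caller of crosslinks is not given in the sources used here. A deposited site list has the same 16230 positions. Another 4 columns of per-sample RNA-seq values were not used. All crosslinked RPM values were whole reads within 0.1, from which depth and reads were recovered, with no molecular identifiers. The values being RPM, the test was limma 3.58.1 in R 4.3.3 on log2(TMM-scaled RPM + 1), two-sided, with a variance trend, after filterByExpr (edgeR 4.0.16, minimum count 10), with Benjamini-Hochberg adjustment over all genes or sites; log2 differences understate changes of low genes. DESeq2 1.42.0 was an alternative. The fits were tested on simulated data. Gene values sum the sites of 1 name; 11 sites under 7 names that join a ZNF gene with another were left out, and 124 of the 125 names were found in RefSeq. Members and lists were chosen with earlier results of these data known. Genes named are the 10 highest in level, the 6 with the most sites, the 6 with the most coding sites and those called. Sequences shown are the 3 coding sites with the most reads for each leading seed and for none, and the called site; 1 of these is not reported here. Further genes are named as examples and were chosen after their values were seen. Same-numbered libraries deviated together only weakly (correlation 0.131 over genes, 0.117 over sites, 2 pairs) and were not treated as pairs.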

Additional observations from a re-analysis of the deposited data

How the results depend on the processing

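The count of ZNF genes called, 1, became 0 without TMM scaling, without the variance trend, without the filter on low counts, with covering reads and with coding sites alone, 3 with 3' UTR sites alone, and 0 leaving out any 1 of the 4 libraries. With the replicate number as a block it stayed at 1, as with a pseudocount of 0.5, joined names, edgeR and DESeq2. ZNF91 kept a positive difference in all of these except coding sites alone, where it has none. The count of ZNF sites called, 1, became 5 with the replicate block (ZNF281, ZNF367, ZNF460 and 2 sites of ZNF91), 0 without the trend or the filter, and 0 to 7 leaving out 1 library. The coding share of ZNF sites, 29.0%, became 22.7% of crosslinked reads and 19.2% of genes counted by where most of their sites lie. The share of coding ZNF sites with a seed, 71.4% against 59.4% in other genes, became 82.5% against 72.7% for sites in all 4 libraries, 82.1% against 70.8% for sites with at least 10 reads and 79.1% against 68.9% of reads. The 3' UTR share, 79.4% against 73.1%, became 86.1% against 84.2% of reads and 79.0% against 81.0% for sites with at least 10 reads, where the order turned. The coding read difference reversed to 1.06 points with covering reads and ran from -1.94 to -0.14 leaving out 1 library. The alternatives of the miR-181 share were chosen after seeing the data. The share became 41.1% for sites with at least 10 reads, 9.68% without chromosome 19 and 17.6% without genes with several such sites. Leaving out 1 library and keeping only sites crosslinked in all the others gave 31.6% to 33.3%, which also filters by depth. Of the named genes and sites, only ZNF91 and the ZNF367 site had a call to lose. ZNF91 lost it in more settings than it kept it, and for the other genes a kept call means none. In total 218 values were counted, for the named genes, the ZNF367 site and 2 shares of ZNF sites with a 7-nt match. Those shares, in coding sequence and 3' UTR, had 6 values each, all counted as kept. The count did not compare them with other genes. Against other genes the 3' UTR order turned with at least 10 reads (34.3% against 35.8%) and by reads (34.6% against 40.7%). Of all 218 values, 187 kept direction and call or share, 13 lost a call and 18 turned sign, all uncalled. Those were, without TMM scaling, ZNF800 (-0.22), ZNF567 (-0.45), ZNF107 (-0.35) and ZNF121 (-0.15); with covering reads, ZNF567 (-0.24) and ZNF12 (0.36); without the filter, ZNF431 (0.098) and ZNF12 (0.087); and, as ranges leaving out 1 library at a time, ZNF431 (-0.16 to 0.063), ZNF451 (-0.32 to 0.049), ZNF567 (-0.076 to 0.19), ZNF107 (-0.20 to 0.50), ZNF207 (-0.94 to 0.16), ZNF12 (-0.43 to 0.34) and ZNF850 (-0.34 to 0.016). The cause of these moves was not tested. The planned placing of coding sites within the protein was not run, because no protein sequences were used here. Depth limits the test to 44 of 125 genes and 27 of 386 sites.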
